A study of Mus musculus with 36 samples.

Results

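The nuclear genes that encode the subunits of respiratory chain complexes I to IV were followed in whole mouse kidneys during the first postnatal week. Genes were taken by name (Nduf a, b, c, s and v subunits for complex I, Sdha to Sdhd for complex II, Uqcr genes for complex III and Cox4 to Cox8 genes for complex IV), and a gene was kept when at least 10 reads were counted in at least 18 of the 36 libraries. Of 67 gene symbols matched among 21476 in the table, 54 were kept, with 31 of 37 for complex I, 4 of 4 for complex II, 8 of 8 for complex III and 11 of 18 for complex IV. The study used 2 mouse models of polycystic kidney disease on a C57BL/6 background. In the Pkd1 model, the controls (WT) were Pkd1 f/f mice, in which both copies of Pkd1 are flanked by loxP sites, and the knockouts (KO) were Pkd1 f/f:HoxB7-Cre mice. In the Pkd2 model, the controls were Pkd2 f/f mice and the knockouts were Pkd2 f/f:HoxB7-Cre mice. HoxB7-Cre acts in the collecting duct lineage, while RNA was taken from the whole kidney, so most cells of a KO kidney did not carry the deletion. Kidneys were collected 1 (P1), 3 (P3) and 7 (P7) days after birth, with 3 libraries in each of the 12 groups. In such bulk RNA, fewer cells of a type and less RNA per cell cannot be told apart.

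The respiratory chain sits in the inner mitochondrial membrane and passes electrons from nutrients to oxygen. Complex I oxidises NADH, complex II oxidises succinate and is at the same time an enzyme of the citric acid cycle, complex III passes electrons from ubiquinol to cytochrome c, and complex IV reduces oxygen. Complexes I, III and IV also pump protons, and ATP synthase uses that gradient. Proximal tubules and thick ascending limbs, which reabsorb most of the filtered salt, are among the most mitochondria-rich cells of the body. The subunits that mitochondrial DNA encodes were not analysed here.

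Promoter sequences show which letters known from mitochondrial gene control lie at these genes. The reference table (RefSeq, GRCm38.p6) held windows from 250 bases before to 50 bases after a gene's start for 44 of the 54 genes, 45 windows in all. The letters GCGCANGCG, bound by nuclear respiratory factor 1 (NRF1), stood in 12 of the 45 windows (26.7%) on either strand, against 6.25% of all 32851 windows of the table. AANATGGCG, known from YY1, stood in 11.1% against 2.38%, and all 5 genes that held it belonged to complex I. CCGGAAGT, known from GABPA and other ETS factors, stood in 8.89% against 3.89%. AAGGTCA, known from oestrogen-related receptors, stood in 6.67% against 4.72%, and GGGCGG, known from Sp1, in 42.2% against 35.7%. Against the 9736 expressed (tested) genes with a window, the contrasts of NRF1, YY1 and CCGGAAGT were narrower, that of AAGGTCA was wider and that of GGGCGG turned. By gene, the NRF1 letters stood in 11 of the 44 subunit genes against 13.1% of the expressed genes, and those of YY1 in 11.4% against 5.14%. CCGGAAGT stood in 9.09% against 7.91%, AAGGTCA in 6.82% against 3.82% and GGGCGG in 40.9% against 64.8%. Matches of one motif may overlap one another and were not merged. A match is a description of the letters and says nothing on binding. The windows of 3 genes that were called lower in KO kidneys at P7 are shown because the results below turn on them. They are written along the gene's own strand, with matches to any of the 5 motifs in capitals. In the Sdha window (chr13:74350191-74350490, minus strand), the 3 capital runs are NRF1 matches that begin at -98, -55 and -10 bases from the start. In the Sdhd window (chr9:50603800-50604099, minus strand), the capitals mark an NRF1 match at -79, an Sp1 match at -3 and an AAGGTCA match on the other strand at 36. The Uqcrfs1 window (chr13:30545267-30545566, minus strand) held none of the 5 motifs.
Sdha: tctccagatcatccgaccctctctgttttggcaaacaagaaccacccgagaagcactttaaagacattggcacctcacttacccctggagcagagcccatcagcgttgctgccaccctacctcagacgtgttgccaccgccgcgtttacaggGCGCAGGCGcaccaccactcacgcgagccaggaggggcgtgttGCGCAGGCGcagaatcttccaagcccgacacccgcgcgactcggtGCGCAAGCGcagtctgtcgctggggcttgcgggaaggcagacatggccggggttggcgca
Sdhd: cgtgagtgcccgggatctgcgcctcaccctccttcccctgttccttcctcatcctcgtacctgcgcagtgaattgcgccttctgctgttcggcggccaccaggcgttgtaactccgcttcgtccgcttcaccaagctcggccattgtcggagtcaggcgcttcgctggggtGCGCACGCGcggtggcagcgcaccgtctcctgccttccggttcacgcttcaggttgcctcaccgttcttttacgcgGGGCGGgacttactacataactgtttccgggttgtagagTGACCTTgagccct
Uqcrfs1: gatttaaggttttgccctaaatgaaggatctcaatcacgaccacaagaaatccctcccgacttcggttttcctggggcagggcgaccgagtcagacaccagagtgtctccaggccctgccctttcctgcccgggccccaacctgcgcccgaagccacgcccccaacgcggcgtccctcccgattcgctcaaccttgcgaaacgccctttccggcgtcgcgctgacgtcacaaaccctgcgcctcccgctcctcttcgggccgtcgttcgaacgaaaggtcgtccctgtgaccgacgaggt

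Library totals ran from 7179152 to 15850818 counts, with a median of 13143336. Values below are CPM, the counts of a transcript relative to the library's TMM-scaled total, and levels compared between genes are CPM per kilobase of transcript. Of the targeted genes, Pkd2 was lower in Pkd2 KO than in WT kidneys at P7 (261 to 276 against 318 to 335 CPM, log2 fold change -0.29, adjusted p = 0.0122), while Pkd1 ranged from 234 to 294 CPM in Pkd1 KO and from 230 to 256 CPM in WT kidneys at P7 (log2 fold change 0.10, adjusted p = 0.595). Per the study's methods, the loxP sites flank a few exons of each gene, while reads were counted by whole transcript. These levels therefore do not measure the deletion. Libraries stood apart in 3 ways that touch the results. At P7 in the Pkd1 model, counts ran with transcript length. The slope of log2 level on a 10-fold rise in length, relative to the mean of the 18 libraries of the model, was -0.711, -0.596 and -0.607 in the KO libraries and -0.045, 0.348 and -0.547 in WT replicates 1, 2 and 3, against -0.126 to 0.048 in the Pkd2 libraries at P7. At P3 the Pkd1 libraries were also apart by genotype, with slopes of 0.279, 0.138 and 0.057 in KO and 0.354, 0.359 and 0.476 in WT libraries. In 1 KO library of each model at P7, the 9 adrenal genes summed to 1837 CPM (Pkd1 KO replicate 1) and 1505 CPM (Pkd2 KO replicate 3), against 8.39 to 14.4 CPM in the other 10 libraries at that day. The highest such sum, 5587 CPM, was in Pkd2 WT replicate 2 at P3, and without that library 0 of the 54 genes were called at P3, as with it. Y-linked counts were present in all 3 Pkd1 KO libraries and in none of the 3 Pkd1 WT libraries at P7, so that genotype and sex cannot be told apart in that comparison. At P1 the Pkd1 KO libraries had none and 2 of 3 WT libraries had them, so the change of the KO effect from P1 to P7 cannot be told apart from sex either.

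Levels per length differed widely among the 54 genes. Cox8a, a small subunit of complex IV, was the highest with a median of 628 CPM per kb over the 36 libraries, followed by Cox6a1 (616) and the complex III hinge protein gene Uqcrh (587). The ranges over libraries of these 3 genes overlapped, from 491 to 1042 CPM per kb. By complex, the median gene stood at 160 CPM per kb in complex I, 214 in complex II, 301 in complex III and 329 in complex IV. The lowest were isoforms known from other tissues. Cox4i2, the isoform of subunit 4 induced by low oxygen and abundant in lung, had a median of 8.42 CPM per kb, and Cox7a1, the heart and skeletal muscle isoform of subunit 7a, had 16.4, against 288 for Cox7a2, its counterpart in most tissues. Ndufa4l2, a hypoxia-induced relative of Ndufa4, had 27.6 against 462 for Ndufa4. Cox6b1 stood at 532 CPM per kb.

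**Figure D1:**
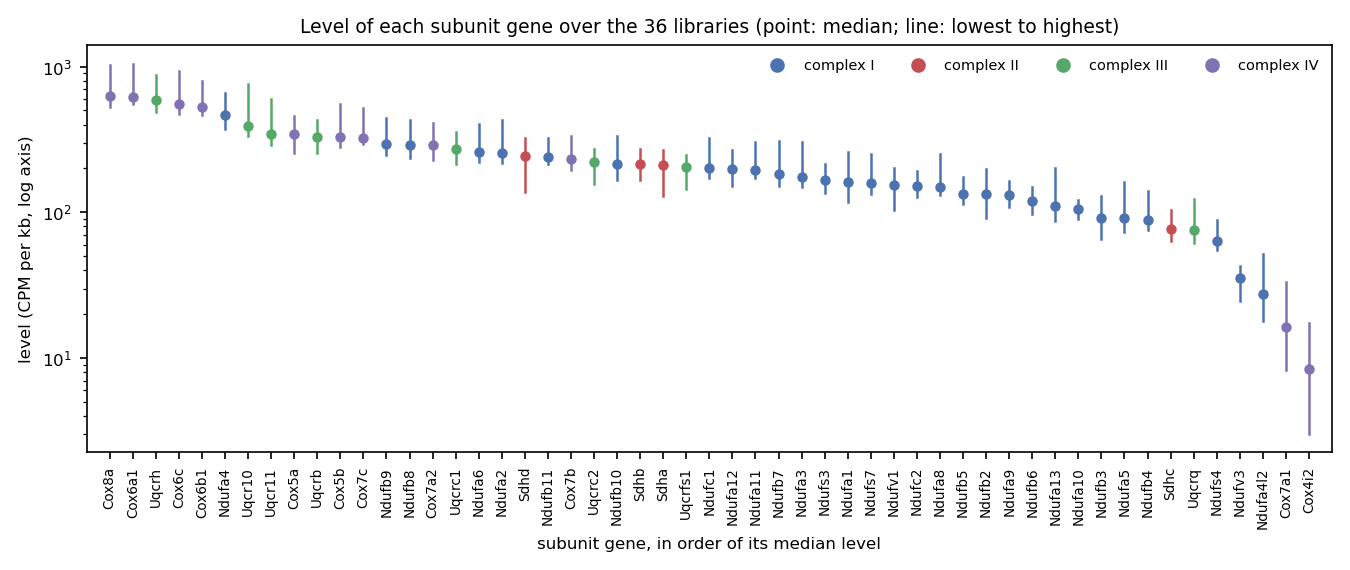
Level of 53 of the 54 genes in CPM per kilobase on a log axis, ordered by median, with a point for the median over the 36 libraries and a line from the lowest to the highest library, coloured by complex. The order runs from Cox8a (628) to Cox4i2 (8.42), and most complex IV genes stand to the left of most complex I genes.

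The 13 genes that did not pass the filter were Ndufa7, Ndufs1, Ndufs5, Ndufs6, Ndufs8 and Ndufv2 of complex I and Cox4i1, Cox6a2, Cox6b2, Cox7a2l, Cox7b2, Cox8b and Cox8c of complex IV. Among them are core subunits that every respiring cell uses, such as Ndufs1 and Ndufv2, which carry iron-sulphur clusters, and Cox4i1. Reads were counted by transcript identifier, and 6 of the 13 genes had at least 2 identifiers in the table, against 1 of the 54 kept. Over the whole table, 64.0% of genes with 1 identifier met the same count rule, against 26.4% of genes with 2 or more. Ndufa7, Ndufs5 and Ndufs6 had 1 identifier each and were also listed at 0. The highest of the 4 entries of Ndufs1 had a mean of 0 counts, and that of Cox4i1 had a mean of 0.75. Their expression was not measured by these values.

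The first question was how the genes behave in the growing kidney without the deletion. From P1 to P7, the genes moved upward in WT kidneys of both models, though the libraries of the 2 days also differed in sex. Y-linked counts were present in Pkd1 WT replicates 1 and 3 at P1 and in no Pkd1 WT library at P7. Among Pkd2 WT libraries they were present in replicate 2 at P1 and in replicates 1 and 2 at P7. Day and sex cannot be fully told apart in these comparisons. In Pkd1 WT kidneys, 53 of 54 genes had a higher fitted level at P7, with a median log2 fold change of 0.23 against 0.01 over all transcripts, and 7 rose past the test (edgeR quasi-likelihood, adjusted p under 0.05). In Pkd2 WT kidneys, 41 of 54 were higher, with a median of 0.10, and 5 rose. None of the 54 genes fell past the test in either model. Over all transcripts tested, 12.6% were called higher at P7 in Pkd1 WT and 13.1% in Pkd2 WT kidneys, so that 7 or 5 of 54 genes is close to that background. All 3 P7 libraries lay above all 3 P1 libraries for 5 genes in the Pkd1 model (17.7% of all transcripts) and for 8 genes in the Pkd2 model (22.2%).

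Complex II genes were among the calls in both models, though most of these calls depended on single libraries. When 1 library was left out, Sdha passed the test in 1 of 6 fits in the Pkd1 model and in 2 of 6 in the Pkd2 model. Sdhc passed in 6 of 6 and 2 of 6 such fits. Sdha, the flavoprotein that oxidises succinate, was at 581, 572 and 528 CPM at P1 and at 702, 707 and 656 CPM at P7 in Pkd1 WT kidneys. The days did not overlap, and the log2 fold change was 0.30 ± 0.10 (SE, adjusted p = 0.0373). In Pkd2 WT kidneys Sdha went from 718, 594 and 599 CPM to 762, 776 and 707 CPM, with overlap between the days (0.23 ± 0.07, adjusted p = 0.0199). Sdhc, one of the pair of membrane anchors of complex II, rose by 0.43 ± 0.09 in the Pkd1 model (adjusted p = 0.00229) and by 0.26 ± 0.08 in the Pkd2 model (adjusted p = 0.0230). Its levels in Pkd1 WT kidneys were 209, 203 and 217 CPM at P1 and 276, 247 and 327 CPM at P7. Sdhb, the iron-sulphur subunit, did not pass the test in either model (0.10 and -0.04 on the log2 scale).

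Of complex I, the accessory subunits Ndufb2, Ndufb10 and Ndufa8 rose in Pkd1 WT kidneys, by 0.53, 0.43 and 0.42 on the log2 scale. In Pkd2 WT kidneys, Ndufa1, Ndufa3 and Ndufb3 rose, by 0.46, 0.36 and 0.34. Ndufa1, encoded on the X chromosome and needed for assembly of the membrane arm, went from 64.7, 63.8 and 61.9 CPM to 87.5, 91.1 and 82.5 CPM (adjusted p = 0.000212). Uqcrb of complex III (0.32) and Cox7b of complex IV (0.39) completed the calls in the Pkd1 model. The counts leaned on single libraries. In Pkd1 WT kidneys without P7 replicate 3, the library with the steep length slope, 2 genes (Sdha and Sdhc) rose, 34 of 54 were higher and the median was 0.06. There, 24 genes rose without P7 replicate 2 and 1 without P1 replicate 1 or 2. Of all transcripts, 10.3% were called higher without P7 replicate 3 and 13.7% without P7 replicate 2. The shares were 10.2% and 9.86% without P1 replicate 1 or 2. In Pkd2 WT kidneys, 12 genes rose without P1 replicate 1 or P7 replicate 3 and 3 without any other library, and without P7 replicate 2 the median was 0.05 and 34 of 54 were higher. With each library's trend on GC content and length taken out, the counts were 24 and 12, while 14.5% and 12.9% of all transcripts were called higher.

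The second question was whether the deletion changed the genes before P7. At P1 and P3 no gene passed the test in either model, while the share called over all transcripts was 0% at P1 in both models and at P3 in the Pkd2 model and 0.00798% (1 transcript) at P3 in the Pkd1 model. The number at an unadjusted p under 0.05 was 0 and 2 of 54 for the Pkd1 and 1 and 1 for the Pkd2 model, and DESeq2 called none at either day. The median log2 fold change was 0.00 at P1 and 0.04 at P3 for the Pkd1 and -0.03 on both days for the Pkd2 model. At Pkd1 P3, all KO libraries lay above all WT libraries for 12 genes and below for 1, against 10.3% of all transcripts above. The largest of these differences was small: the complex III subunit Uqcr11 had a log2 fold change of 0.20 ± 0.07 (adjusted p = 0.256). With the GC content and length correction, the Pkd1 P3 median was -0.01. Cox4i2 had the widest difference at these days, at 8.02, 7.84 and 6.10 CPM in Pkd2 KO and 4.44, 5.08 and 3.25 CPM in WT kidneys at P3 (0.78 ± 0.25, adjusted p = 0.931).

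**Figure D2:**
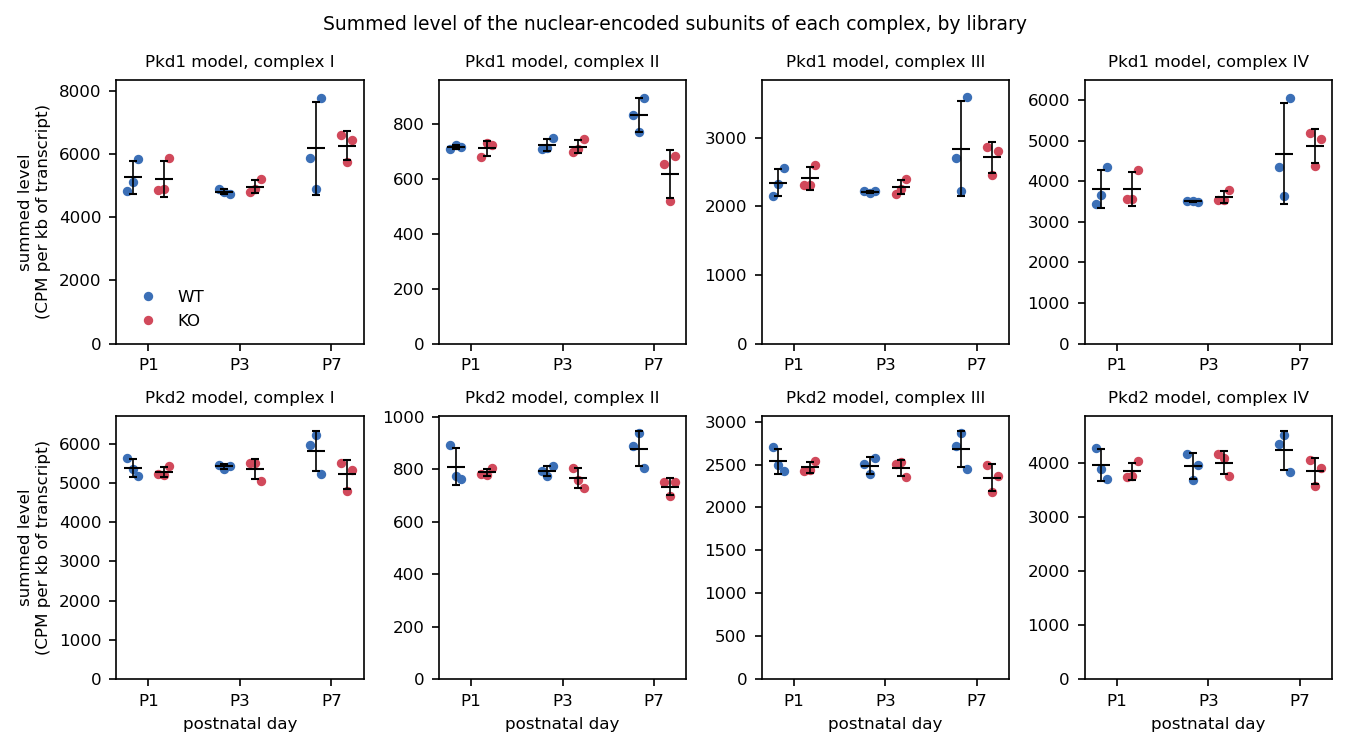
Summed level of the genes of each complex in CPM per kilobase against postnatal day, with 1 point a library, WT in blue and KO in red, and black bars for the mean ± SD (n = 3). WT and KO libraries overlap at P1 and P3 in every panel but Pkd1 complex IV at P3, and at P7 they separate in both complex II panels, where KO means are 619 and 734 against WT means of 833 and 878.

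At P7, complex II was the complex whose summed level lay lower in all KO libraries than in all WT libraries in both models. Summed over its 4 genes, complex II stood at 619 ± 87.0 CPM per kb in Pkd1 KO and 833 ± 62.4 in WT kidneys (SD, n = 3), and at 734 ± 31.9 in Pkd2 KO and 878 ± 66.6 in WT kidneys. KO libraries lay below WT libraries in both models, with ratios of means of 0.743 and 0.836. For complexes I, III and IV, the KO and WT libraries overlapped in both models, with ratios of 1.01, 0.955 and 1.04 for the Pkd1 and 0.898, 0.875 and 0.910 for the Pkd2 model. These sums were not tested. The complex II genes were also the longest, at 1142 to 3171 bases with a median of 2065, against medians of 758, 955 and 618 for complexes I, III and IV, and the Pkd1 values at P7 ran with length.

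Gene by gene, Sdha was lower in KO kidneys of both models at P7. Pkd1 WT libraries held 702, 707 and 656 CPM and KO libraries 495, 377 and 515 CPM, with no overlap. The log2 fold change was -0.57 ± 0.14 (SE, adjusted p = 0.0331), so that the level fell by 32.8%. Pkd2 WT libraries held 762, 776 and 707 CPM and KO libraries 618, 585 and 601 CPM, again apart (-0.32 ± 0.06, adjusted p = 0.0157). The P7 level of Sdha in Pkd1 KO kidneys, 462 ± 74.3 CPM, was under that of the same genotype at P1, 571 ± 31.7 CPM, whereas WT kidneys went from 560 ± 28.3 to 688 ± 27.9 CPM (SD, n = 3). The change between days in KO kidneys was not tested. Sdha has 2900 bases, and the length slopes of the KO libraries were 0.146, 0.229 and -0.237 at P1 and -0.711, -0.596 and -0.607 at P7. Y-linked counts were present in none of these KO libraries at P1 and in all of them at P7.

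Sdhd, the other membrane anchor of complex II, went the same way. Among Pkd1 libraries it was at 327, 299 and 363 CPM in WT and at 233, 171 and 249 CPM in KO libraries, which lay apart (-0.60 ± 0.16, adjusted p = 0.0411), and this was the largest fall among the 54 genes. Among Pkd2 libraries it was at 373, 400.2 and 328 CPM in WT and at 310.4, 280.4 and 305 CPM in KO libraries, also apart, and narrowly missed the threshold (-0.30 ± 0.08, adjusted p = 0.0504). Sdhb stood at -0.30 ± 0.14 and -0.19 ± 0.07 in the Pkd1 and Pkd2 models (adjusted p = 0.178 and 0.111). Sdhc stood at -0.02 ± 0.13 and -0.15 ± 0.08 (adjusted p = 0.938 and 0.253).

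Of the 54 genes, 2 fell in the Pkd1 model (Sdha and Sdhd) and 0 rose, while 7.54% of all transcripts were called lower. Among Pkd2 kidneys 4 fell and 0 rose, while 6.06% of all transcripts were called lower. The counts are close to the background in both models. Over all 54 genes, the Pkd1 model had 29 higher and 25 lower in KO kidneys (median 0.01, and from -0.12 with 41 lower without WT replicate 2 to 0.22 with 14 lower without WT replicate 3), and in the Pkd2 model 2 were higher and 52 lower (median -0.15, against 0.00 over all transcripts). At an unadjusted p under 0.05 there were 5 and 19 of 54 genes, and KO libraries lay below all WT libraries for 5 genes in the Pkd1 model (19.7% of all transcripts) and for 15 in the Pkd2 model (15.9%).

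**Figure D3:**
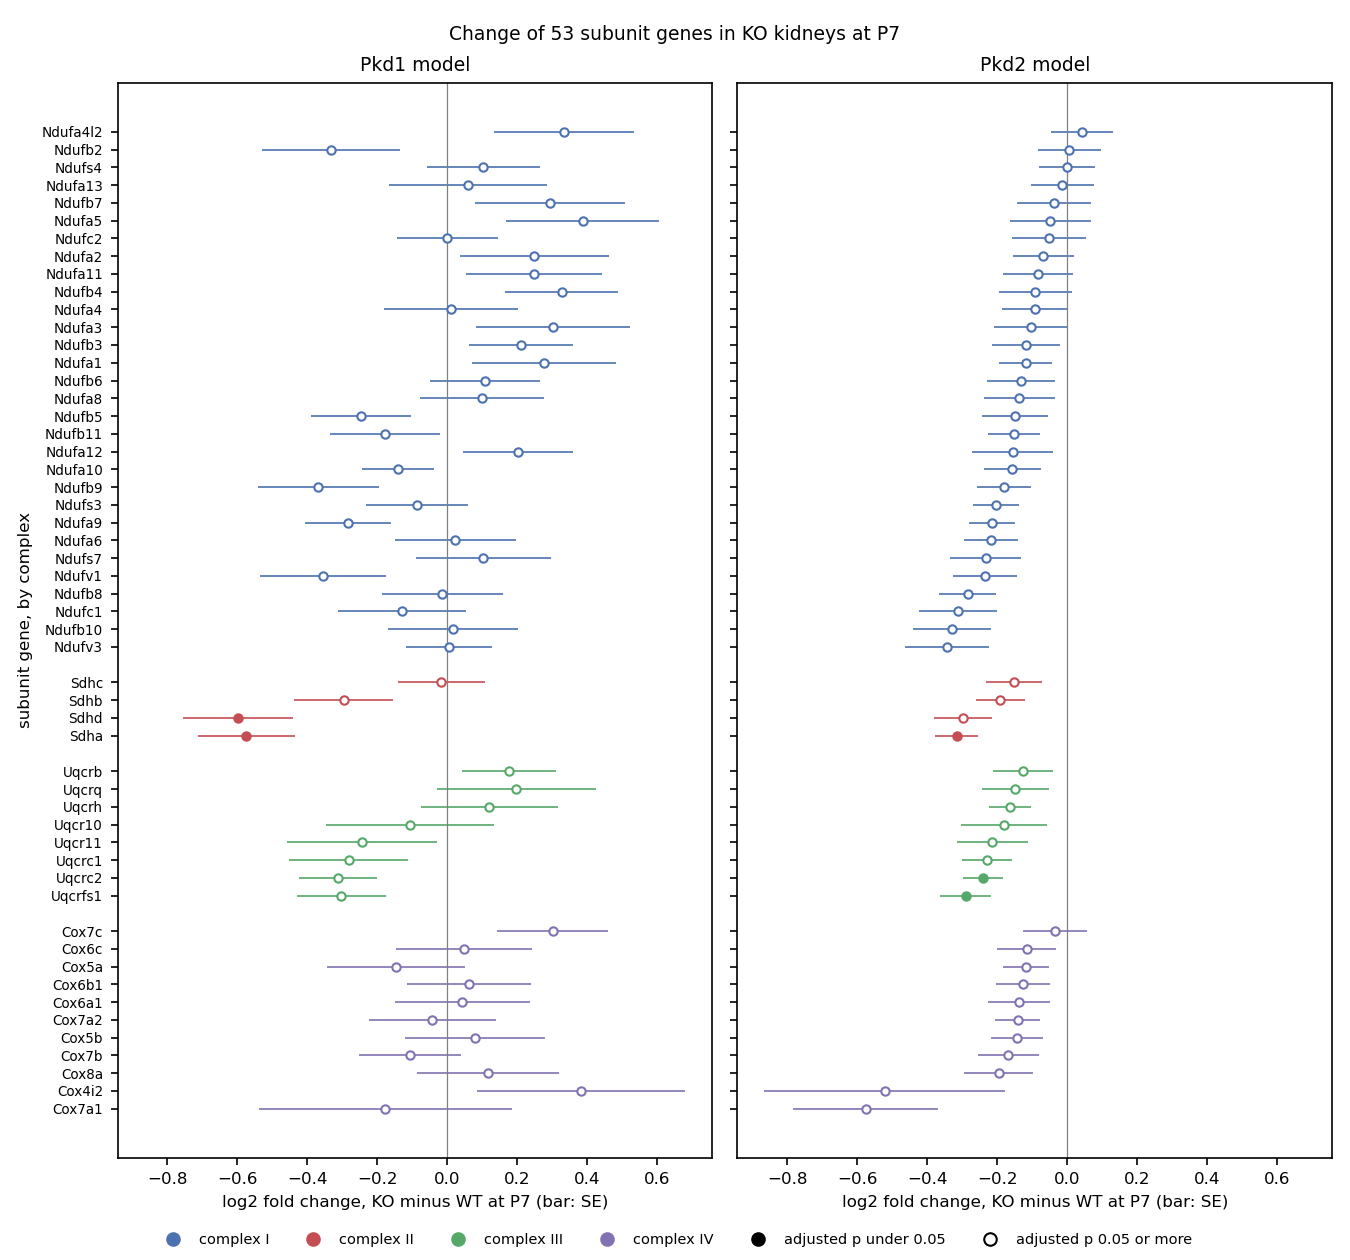
Log2 fold change of 53 of the 54 genes (KO minus WT at P7) on the horizontal axis with its SE as a bar, by complex, in the Pkd1 model (left) and the Pkd2 model (right), with filled points for an adjusted p under 0.05. Pkd1 values scatter on both sides of 0 with Sdha and Sdhd at the far left, and all but 2 Pkd2 values lie left of 0.

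The other calls described in the Pkd2 model were in complex III. Uqcrc2, a core protein of complex III, was at 488, 518 and 474 CPM in WT and at 427, 406 and 419 CPM in KO libraries (-0.24 ± 0.06, adjusted p = 0.0322). Uqcrfs1, the Rieske iron-sulphur protein, was at 317, 330.4 and 284 CPM in WT and at 259, 239 and 264 CPM in KO libraries (-0.29 ± 0.07, adjusted p = 0.0368). For both, WT and KO libraries lay apart.

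Pkd1 KO libraries also lay below the WT libraries for these genes, with log2 fold changes of -0.31 for Uqcrc2 and -0.30 for Uqcrfs1, neither past the test (adjusted p = 0.0913 and 0.137). Ndufv1, the flavin-bearing subunit that accepts electrons from NADH, stood at -0.36 and -0.24 in the Pkd1 and Pkd2 models (adjusted p = 0.203 and 0.129). Uqcrc1, the partner of Uqcrc2, stood at -0.28 and -0.23 (adjusted p = 0.278 and 0.0673). Of the other core subunits of complex I, Ndufs3 had -0.09 and -0.20 and Ndufs7 had 0.10 and -0.23. The accessory subunit Ndufs4 had 0.10 and 0.00, and adjusted p over these genes ran from 0.0739 to 0.994.

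**Figure D4:**
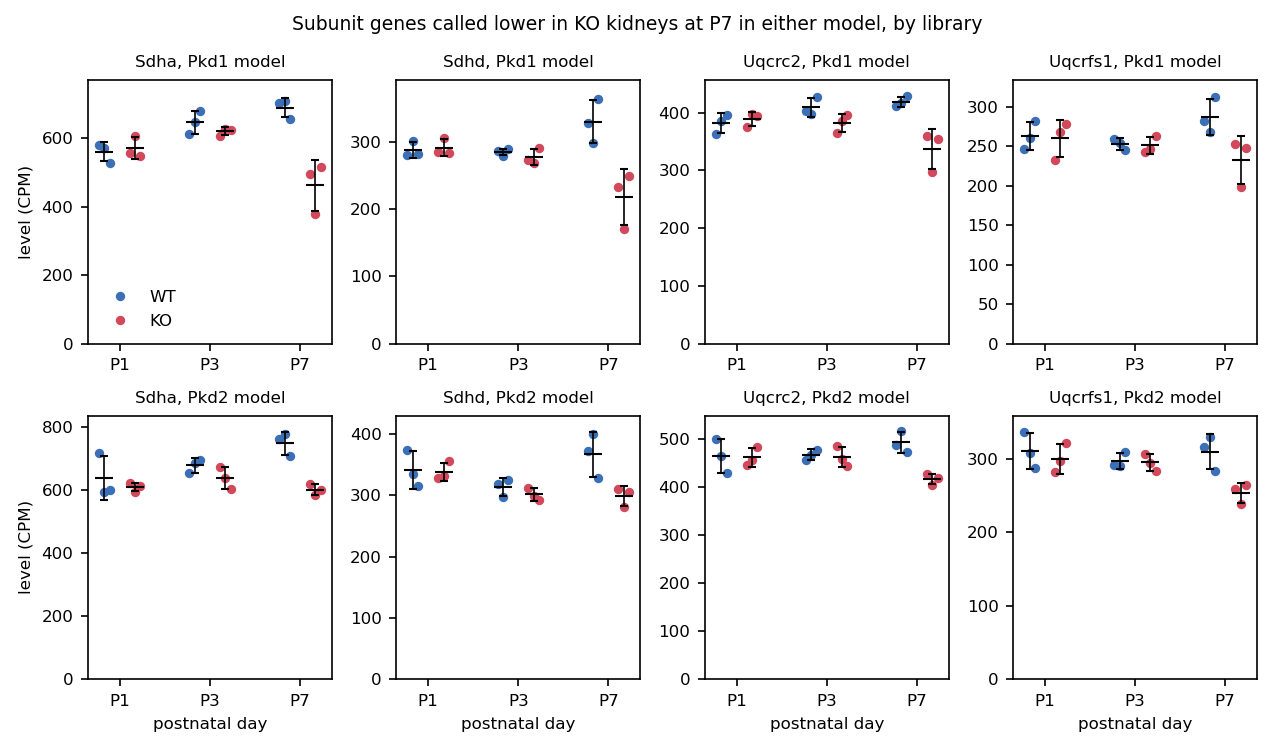
Level in CPM by postnatal day of 4 genes called lower in KO kidneys at P7 in at least 1 model, with 1 point a library (WT blue, KO red) and black bars for the mean ± SD (n = 3), Pkd1 model above and Pkd2 model below. WT and KO points mix at P1 and lie apart at P7 in every panel.

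Complex IV held no call in either model. Its 11 genes had a median log2 fold change of 0.05 for the Pkd1 and -0.14 for the Pkd2 model, where all 11 were lower. Cox5a and Cox5b, which surround the catalytic core, stood at -0.15 and 0.08 for the Pkd1 and at -0.12 and -0.14 for the Pkd2 model. Of the isoform pairs, Cox7a1 had the widest difference in the Pkd2 model (6.32, 8.13 and 8.34 CPM in WT and 6.04, 4.98 and 4.26 CPM in KO libraries, -0.58 ± 0.21, adjusted p = 0.106), whereas Cox7a2 had -0.14. Cox4i2 had 0.38 and -0.52 with standard errors of 0.30 and 0.34. Cox6a1, Cox6b1 and Cox8a had 0.04, 0.06 and 0.12 for the Pkd1 and -0.14, -0.13 and -0.20 for the Pkd2 model. Ndufa4, now counted with complex IV by many authors, had 0.01 and -0.09, and Ndufa4l2 had 0.33 and 0.04, the latter the highest value in the Pkd2 model. The highest value in the Pkd1 model was that of Ndufa5, at 95.7, 66.6 and 129 CPM in WT and at 141, 121 and 119 CPM in KO libraries (0.39 ± 0.22, adjusted p = 0.250).

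The Pkd1 values at P7 ran with transcript length. Over the 54 genes, the log2 fold change correlated with log length at Pearson's r = -0.39 and Spearman's rho = -0.35, given across genes that share the same 6 libraries. The 36 genes under 1000 bases had a median of 0.09, and the 18 of 1000 bases or more had a median of -0.26. All transcripts went the same way in that comparison, with medians of 0.29 under 1000 bases and -0.03 from 1000 bases up, so that the 54 genes stood below all transcripts in both length classes. For Pkd2 kidneys the medians of the short and long genes were -0.13 and -0.21, against 0.02 and 0.00 for all transcripts. With each library's spline trend on GC content and length taken out as an offset in edgeR, 21 of 54 genes were called lower and 0 higher in the Pkd1 model, 11 of 31 in complex I, 3 of 4 in complex II, 5 of 8 in complex III and 2 of 11 in complex IV, while 8.94% of all transcripts were called lower. The median was then -0.31, with 4 genes higher and 50 lower. Sdha then stood at -0.52 ± 0.12 (adjusted p = 0.0239) and Sdhd at -0.78 ± 0.13 (adjusted p = 0.0117). The same correction in the Pkd2 model gave 7 genes lower and 0 higher, against 6.14% of all transcripts lower, and the difference between the models had a median of -0.07 over the 54 genes. Which of the values in the Pkd1 model is nearer the RNA content of the kidneys was not tested.

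**Figure D5:**
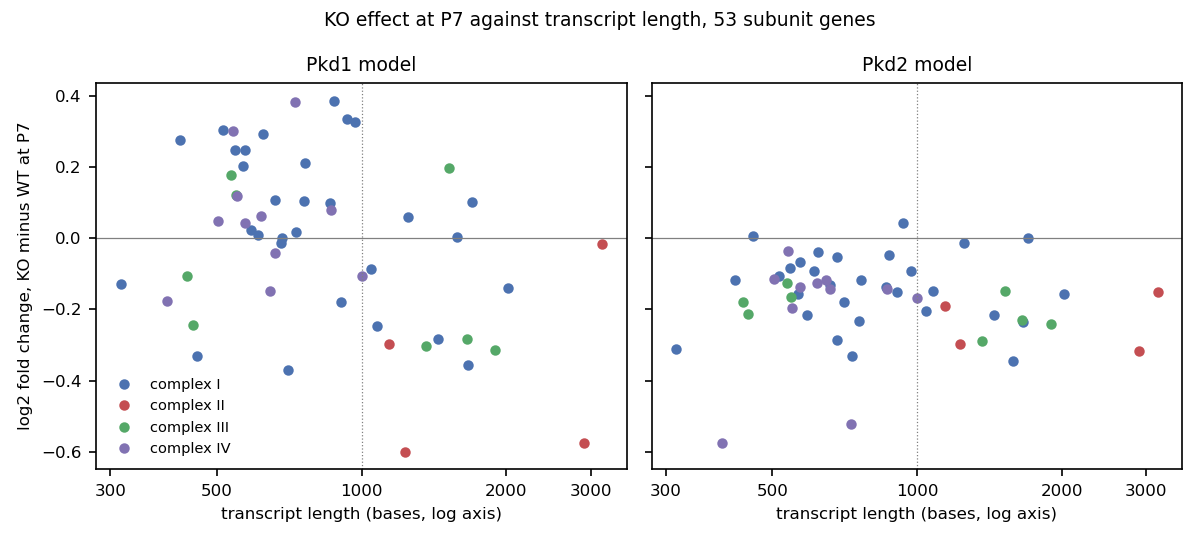
Log2 fold change (KO minus WT at P7) against transcript length in bases on a log axis for 53 of the 54 genes, coloured by complex, with a dotted line at 1000 bases. In the Pkd1 model the points fall from left to right (medians of 0.09 and -0.26 over all 54 genes on the 2 sides of the line), and in the Pkd2 model they stay level (-0.13 and -0.21).

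Single libraries moved the counts. Without Pkd1 WT replicate 3, 9 genes rose and 2 fell in the Pkd1 model, against 12.6% and 13.3% of all transcripts, and the 2 were Sdha and Sdhd (-0.61 and -0.52, adjusted p = 0.0226 and 0.0496). Without Pkd1 KO replicate 1, the library with adrenal genes, no gene was called, with Sdha at -0.62 and Sdhd at -0.64 (adjusted p = 0.0812 and 0.0945). Calls were fewer over all transcripts too, with 2.06% lower against 7.54% when all libraries were kept. Without Pkd2 KO replicate 3, the other library with adrenal genes, no gene was called in the Pkd2 model, with Sdha at -0.32 (adjusted p = 0.0607) and 53 of 54 genes lower. There, 2.75% of all transcripts were called lower, against 6.06% when all libraries were kept. Without Pkd2 WT replicate 3, in which no Y-linked counts were present, 20 genes fell, against 7.79% of all transcripts. Among the other libraries, 0 genes were called without Pkd1 KO replicate 2 or WT replicate 1 (1.49% and 0.92% of all transcripts lower). Without Pkd1 KO replicate 3 or WT replicate 2, 1 gene fell (4.61% and 4.31%). In the Pkd2 model, 0 were called without KO replicate 2 or WT replicate 1 (2.46% and 1.94% of all transcripts lower). There, 1 fell without WT replicate 2 (4.14%) and 2 fell without KO replicate 1 (3.93%). The sign of Sdha, Sdhd, Uqcrc2 and Uqcrfs1 was negative in all 6 of these fits in each model. In a fit of 18 libraries with a term for Y-linked counts, 0 genes were called in the Pkd1 model, where Sdha stood at -0.53. In the Pkd2 model 10 fell, against 4.87% of all transcripts. Over all transcripts that Pkd1 fit called 6, against 3882 without the term, so its 0 says nothing particular to these genes. Within the Pkd1 groups, only the WT libraries at P1 differed in Y-linked counts, so the term rested on them. That fit therefore cannot separate sex from genotype at P7, for Sdha or any other gene.

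The KO effect was then compared between days and between models. In the Pkd1 model, the effect at P7 was lower than at P1 for Sdha (difference of log2 fold changes -0.60 ± 0.14, adjusted p = 0.0192) and Sdhd (-0.62 ± 0.16, adjusted p = 0.0262), and these were the 2 of 54 genes called, against 4.1% of all transcripts called lower. For the Pkd2 model 0 of 54 were called in this comparison by edgeR, 0 by DESeq2 and 1.3% of all transcripts, with 7 genes at an unadjusted p under 0.05, 50 of 54 values below 0 and Sdha at -0.25 ± 0.10 (adjusted p = 0.221). Between the models at P7, edgeR called 0 of 54 genes, with 0 at an unadjusted p under 0.05, and 0% of all transcripts. DESeq2 also called 0 of 54, with 1 at an unadjusted p under 0.05, and 408 of all transcripts. The difference of the Sdha effects, Pkd1 minus Pkd2, was -0.24 ± 0.15 and that of the Sdhd effects -0.28 ± 0.19 (adjusted p = 0.444 and 0.457). Without Pkd1 WT replicate 3, 12 genes had a higher effect in the Pkd1 model, and 1493 of all transcripts were called.

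Genes around the chain were read beside it at P7. Of the citric acid cycle genes other than complex II, 12 of 12 tested were lower in KO kidneys in each model. In the Pkd1 model 3 were called lower, among them Suclg1 (-1.11) and Suclg2 (-0.46). In the Pkd2 model 5 were called lower, among them Dld (-0.32), Suclg1 (-0.31), Suclg2 (-0.24) and Sucla2 (-0.21). The last 3 are subunits of succinyl-CoA synthetase, which makes the succinate that complex II oxidises. The list medians were -0.29 and -0.21, beside -0.01 and 0.00 for all transcripts. For this and the following pathway lists, the shares of all transcripts called lower were 7.54% (Pkd1) and 6.06% (Pkd2). The Pkd1 values at P7 ran with transcript length, and no length correction is given for these lists. Of the electron carriers that feed ubiquinone, Coq9, needed to make ubiquinone, fell in both models (-0.63 and -0.42, adjusted p = 0.0132 and 0.00386), and Etfdh fell in the Pkd1 model (-0.70, adjusted p = 0.0270), so that 2 and 1 of 6 tested were called.

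Of ATP synthase (complex V), the subunit genes Atp5b (-0.89) and Atp5a1 (-0.71) fell in the Pkd1 model, 2 of 13 tested. In the Pkd2 model 0 of 14 were called, and the median was -0.15. Assembly factors gave few calls. For complex I, Ndufaf2 rose (0.57) and Dmac2 fell (-0.87) in the Pkd1 model, and for complex IV Coa7 fell (-0.97), while 0 of 16 and 0 of 18 were called in the Pkd2 model. Neither the 4 complex II assembly factors nor the 4 tested of the list of other complex III genes were called. Of the 14 tested genes that mark mitochondrial mass, 1 fell for the Pkd1 and 0 were called for the Pkd2 model. The cytosolic ribosomal protein genes went the other way: 36 of 67 rose in the Pkd1 model (median 0.62) and 7 of 67 in the Pkd2 model (median 0.21), with 0 lower, against 6.2% and 7.82% of all transcripts called higher. The median of all transcripts under 1000 bases was 0.29 in the Pkd1 model. Of 8 tested hypoxia response genes, 1 rose and 1 fell for the Pkd1 and 2 fell for the Pkd2 model.

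Of the regulators of mitochondrial biogenesis, 12 of 15 were tested, and Ppargc1a, Nrf1 and Ppara did not pass the filter. As with Ndufs1 and Cox4i1 above, low counts here need not measure expression, so this does not show that they are absent. Esrra, the oestrogen-related receptor most tied to respiratory chain genes, had a mean of 78.1 CPM in Pkd2 KO and 98.9 CPM in WT kidneys (-0.34 ± 0.09, adjusted p = 0.0492), and -0.21 ± 0.19 in the Pkd1 model (adjusted p = 0.462). In the Pkd1 model, Esrrg, its relative, fell from a mean of 2.27 to 0.328 CPM (-2.76 ± 0.64, adjusted p = 0.0304), and Pprc1, a coactivator of the PGC-1 family, rose (0.48, adjusted p = 0.0345). Ppargc1b had -0.73 and -0.26, Gabpa had -0.29 and -0.10, and Tfam, which packages and transcribes mitochondrial DNA, had 0.13 and -0.02, none past the test. Esrrb was listed at 0 in the 3 Pkd1 KO libraries. Its WT level is not given here, so no change with genotype is read from that value.

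Markers of kidney segments moved with the genotype at P7. The 16 proximal tubule genes, of which Acsm2 was at 0 in all libraries, summed to 1956 to 3873 CPM in Pkd1 KO and 6817 to 8401 CPM in WT kidneys, and to 4342 to 4990 CPM in Pkd2 KO and 7390 to 9238 CPM in WT kidneys. Of 13 tested, 11 fell for the Pkd1 and 10 for the Pkd2 model, against 7.54% and 6.06% of all transcripts called lower. At P1 the same sum was 2834 to 3960 CPM in Pkd1 KO and 2892 to 3656 CPM in WT kidneys, a range that overlapped. The highest of the list, the phosphate carrier Slc34a1, stood at -0.91 and -0.72 (adjusted p = 0.0469 and 0.00839). Of the 8 intercalated cell genes, 7 fell in each model. Of 5 tested principal cell genes, 3 fell and 1 rose in each model, and of 6 tested genes of the thick ascending limb and distal tubule 1 fell. The collecting duct gene Aqp2, the vasopressin-regulated water channel, stood at -2.28 and -2.38 (adjusted p = 0.0357 and 0.0151). The part of these markers in the fall of Sdha and Sdhd was not tested.

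Other lists moved less evenly. Of all transcripts, 6.2% and 7.82% were called higher and 7.54% and 6.06% lower in the Pkd1 and Pkd2 models. Stroma and myofibroblast genes gave 2 and 4 of 5 called higher, and the highest, Col3a1, had -0.55 and 0.09 (adjusted p = 0.0777 and 0.634). Leukocyte genes gave 1 and 3 of 5 called higher, with Csf1r at 0.11 and 0.35 (adjusted p = 0.530 and 0.0236). Endothelium genes gave 0 and 3 of 4 called lower, and podocyte genes 1 and 0 of 5. Plvap of endothelium had -0.49 and -0.68, Podxl of podocytes -0.78 and -0.49, Calb1 of the distal tubule -1.18 and -0.70, and Rhcg of intercalated cells -0.38 and -0.24. Of tissues beside the kidney that are rich in mitochondria, brown adipocyte genes summed to 4.31 to 30.7 CPM in Pkd1 KO and 1.39 to 3.94 CPM in WT kidneys (1 of 3 tested called higher). In the Pkd2 model they summed to 1.34 to 38.3 CPM over the 6 libraries (0 of 4 called), and Dio2, the highest, reached at most 22.6 CPM. Muscle genes summed to 13.6 to 14.4 CPM in Pkd1 KO and 4.21 to 7.71 CPM in WT kidneys, and to 10.2 to 15.7 CPM in Pkd2 KO and 5.51 to 6.15 CPM in WT kidneys (1 of 3 and 1 of 4 called higher), with Tnni3 at most 10.1 CPM, and Myh6 and Tnnt2 at 0. White adipocyte genes summed to 297 to 363 CPM in Pkd1 KO and 218 to 377 CPM in WT kidneys (1 of 3 called higher), nearly all of it Fabp4, which endothelium expresses too. Among Pkd2 libraries 1 of 3 was called higher and 1 lower, and Fabp4 was lower in KO libraries (-0.50, adjusted p = 0.00295). No adrenal gene was called (0 of 3 and 0 of 7 tested), and Cyp21a1 reached 598 CPM in Pkd1 KO replicate 1 and 463 CPM in Pkd2 KO replicate 3, and was at most 0.582 CPM in the WT libraries at P7.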

How the data were processed

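RNA was measured in 36 whole-kidney libraries by RNA-seq. Per the labels and the study's methods, total RNA was extracted with TRIzol, reads were mapped to the mouse genome (mm10) with TopHat2 2.1.0 and counted with HTSeq; CASAVA 1.8.2 is also named in the submitters' processing notes. The authors deposited raw read counts per RefSeq transcript identifier, 29996 rows, with no normalization. Whether counting used strand is not given in the sources used here. Genes with several identifiers passed the count filter less often, and the cause was not tested. Kit and batch are not given in the sources used here.

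Identifiers were paired with symbols (28974 of 29996) through RefSeq (GRCm38.p6), and the row with the highest mean stood for a gene. Transcript length and GC content were available for 28877 rows, including all 54 genes. The members, gene lists and tests were chosen with earlier results of these data known. Within each model, transcripts that reached 10 counts in 3 or more of its 18 libraries were tested with edgeR 4.0.16 (R 4.3.3), glmQLFit and glmQLFTest, TMM factors over the 18 libraries, two-sided, with Benjamini-Hochberg adjustment over all transcripts and a threshold of 0.05. KO and WT were compared within the 6 libraries of a model and day, WT days and the change of the KO effect over days in 1 fit of 18 libraries, and the models in the 12 libraries of P7. Standard errors were derived from the F statistic. The fits were tested on simulated data with known changes. Library totals limit the precision of low genes.

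Replicate libraries differed by more than counting noise in all 36 pairs within groups (chi-square per transcript 4.89 to 59.3). Nothing in the labels ties a library to an animal beyond its number, so p-values measure the spread between these libraries. Same-numbered WT and KO libraries deviated together at Pkd1 P1 alone (r = 0.259 to 0.579 for every pair), where a replicate block changed no call (0 and 0). At the other days of both models the lowest r was -0.215 to -0.036. Genes given values are core subunits, Ndufs4, isoform pairs, all members called, the largest rise and fall of each comparison, the highest and lowest levels, mitochondrial regulators and the highest marker of each list. Other genes of the neighbouring pathways were named because they passed the test. Alternatives were RLE factors, other count filters, DESeq2 1.42.0, summed rows, GC and length splines, a replicate block, 18-library fits and leaving out each library. Figures were drawn with matplotlib 3.10.9. Results for a few genes, included in the counts, are not reported here by name.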

Additional observations from a re-analysis of the deposited data

Results flagged for a closer look

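The knockout effect on 2 complex II genes differed between P1 and P7 in the Pkd1 model by the interaction test. For Sdha the difference of the log2 fold changes was -0.60 (SE 0.14, edgeR adjusted p = 0.0192), and it was past the threshold in 11 of 12 fits that left out 1 library. For Sdhd it was -0.62 (SE 0.16, adjusted p = 0.0262), past the threshold in 7 of 12 such fits. In the Pkd2 model the same differences were -0.25 and -0.28 (adjusted p = 0.221 and 0.220). At P1 Y-linked counts were present in 0 of 3 KO and 2 of 3 WT libraries of the Pkd1 model and at P7 in 3 of 3 KO and 0 of 3 WT libraries, so these differences cannot be told apart from sex. Groups of 3 libraries are too small for a check of single outlying samples.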

How the results depend on the processing

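At P1 and P3 the number of genes called stayed at 0 under every alternative run. At P7 the counts moved. For KO against WT in the Pkd1 model (2 genes), the count was 21 with the GC content and length correction. All 21 were lower, against 8.94% of all transcripts. It was 7 with that correction and a replicate block (3.61% of all transcripts lower) and 1 with a replicate block alone (3.29%). With 18 libraries in 1 fit it was 9 (1 higher and 8 lower), against 14.5% higher and 16.5% lower of all transcripts. With the Y-linked term added it was 0, against 6 called over all transcripts, and that term rested on the WT libraries at P1 alone. It was 0 to 11 when 1 library was left out, with 0.92% to 13.3% of all transcripts called lower. In the Pkd2 model (4 genes) it was 12 with DESeq2 (8.53% of all transcripts called lower) and 1 with a replicate block alone (5.26%). With the GC content and length correction it was 7 without the block (6.14%) and 7 with it (5.52%). It was 8 with 18 libraries in 1 fit (5.23%) and 10 with the Y-linked term (4.87%). All of these genes were lower. When 1 library was left out the count was 0 to 20, with 1.94% to 7.79% of all transcripts called lower. The same-numbered libraries at P7 share only a number. For P7 against P1 in WT, the GC content and length correction gave 24 for Pkd1 and 12 for Pkd2 kidneys, and leaving out 1 library gave 1 to 24 and 3 to 12. Of all transcripts, 14.5% and 12.9% were called higher with the correction. With 1 library left out the shares were 9.86% to 13.7% and 7.76% to 13.5%. For the change of the KO effect, that correction gave 17 in the Pkd1 model, all of them lower. Leaving out 1 library gave 0 to 7 in the Pkd1 model, 0 to 1 in the Pkd2 model and 0 to 12 between the models. In the main fits, 4.1% of all transcripts were called lower in the Pkd1 model. The shares called in either direction were 1.3% in the Pkd2 model and 0% between the models. Shares under these alternatives are not listed here, so these counts are not read against a background. The cause of the differences between settings was not tested. Other counts moved by at most 1.5 times. Depth limits Cox4i2 and Cox7a1, at about 6 CPM. The correction with a block and TMM factors over the 6 libraries were chosen after seeing the data.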
